A study of Mus musculus with 24 samples.

Results

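Histone H3 acetylated at lysine 27 (H3K27ac), a mark of active enhancers and promoters, was examined at 10 genes that encode regulators of oxidative metabolism in muscle. The genes were the PGC1 coactivators Ppargc1a and Ppargc1b, their muscle partner Perm1, the corepressor Nrip1, the peroxisome proliferator–activated receptors Ppara and Ppard, the estrogen-related receptors Esrra, Esrrb and Esrrg, and the mitochondrial transcription factor Tfam. They are 10 of 21000 protein-coding genes of the annotation. Their peaks were those that overlapped the gene body by 1 bp or lay within 10 kb of any curated mm10 RefSeq transcription start, and 552 of the 469078 peaks in the 8 lists met this rule. The rule itself uses positions and no measured value.

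The peaks came from isolated quadriceps myofibers of male and female C57BL/6J mice. Vehicle-treated mice received DMSO in PBS. Weekly prednisone–treated mice received prednisone at 1 mg/kg once a week for 4 weeks, 5 injections in all, with vehicle on the other days, and their muscle was taken 4, 6 or 8 days after the last injection. Mice were 10 weeks old when treatment started, unless the study states otherwise. A group comprised 2 libraries pulled down with the H3K27ac antibody and 1 input library, and its peaks form 1 list. Because the 2 libraries were not analysed apart, no comparison between lists has a replicate error or a test, and differences in peak number are descriptions of these lists. A peak carries 3 values: its normalized tags (sequenced fragments in the peak, scaled for depth), its findPeaks score (the caller's own value, which is not the number of tags in the peak, used within a list only) and its fold over input (tags against those of chromatin without pull-down). Normalized tags are summed over a peak, so between peaks of unlike width they do not compare the signal per base. Folds differ between lists as a whole, with medians from 4.49 to 10.7, so the place of a fold among the promoter peaks of its own list is given.

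PGC1 coactivators do not bind DNA themselves. They are recruited by nuclear receptors and other factors, among them the PPARs, which respond to fatty acids, and the ERRs, which act without a classical hormone, and together these drive genes of fatty acid oxidation and the respiratory chain. Perm1 is a muscle protein induced by PGC1 and ERR, Nrip1 (RIP140) opposes the same receptors, and Tfam packages and transcribes mitochondrial DNA. In muscle this network is known for its response to exercise and fasting.

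The promoter sequences of 4 starts are shown because results below turn on them. They are the 250 bases before a start, read 5′ to 3′ along the gene from RefSeq GRCm38.p6 (mm10), and capitals mark a motif match. The proximal start of Ppargc1a carries the cyclic AMP response element, the distal start lies 13.8 kb upstream, Nrip1 was the only gene of the 10 with a promoter peak in all 8 lists, and Tfam carries an ETS site.
Ppargc1a proximal start, chr5:51553922-51554171, minus strand: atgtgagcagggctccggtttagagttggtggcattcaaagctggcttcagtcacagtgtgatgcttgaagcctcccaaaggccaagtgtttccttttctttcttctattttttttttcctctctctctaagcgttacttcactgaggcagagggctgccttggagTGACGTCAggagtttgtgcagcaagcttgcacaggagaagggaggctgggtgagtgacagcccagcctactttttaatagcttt
Ppargc1a distal start, chr5:51567726-51567975, minus strand: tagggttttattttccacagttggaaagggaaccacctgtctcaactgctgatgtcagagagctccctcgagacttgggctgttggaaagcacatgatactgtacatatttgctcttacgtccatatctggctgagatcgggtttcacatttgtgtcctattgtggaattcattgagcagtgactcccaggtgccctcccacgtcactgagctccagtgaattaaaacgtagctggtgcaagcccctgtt
Nrip1 first start, chr16:76373828-76374077, minus strand: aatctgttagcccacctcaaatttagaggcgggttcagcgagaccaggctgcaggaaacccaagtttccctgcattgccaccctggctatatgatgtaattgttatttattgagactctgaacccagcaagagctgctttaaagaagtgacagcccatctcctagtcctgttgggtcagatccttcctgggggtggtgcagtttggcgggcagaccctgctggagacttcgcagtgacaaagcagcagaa
Tfam start, chr10:71238045-71238294, minus strand: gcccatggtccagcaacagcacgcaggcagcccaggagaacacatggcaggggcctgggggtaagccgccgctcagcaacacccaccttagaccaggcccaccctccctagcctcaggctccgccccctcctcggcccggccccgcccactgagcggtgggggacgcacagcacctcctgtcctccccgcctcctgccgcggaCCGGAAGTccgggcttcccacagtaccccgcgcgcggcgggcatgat

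The 10 genes have 17 starts, and motifs were looked for on both strands from 250 bases before to 50 bases after each. The cyclic AMP response element TGACGTCA, bound by CREB-family factors, was found at 1 start, 84 to 77 bases before the proximal start of Ppargc1a, and in 1.79% of 32851 RefSeq promoters of the same length. The ETS site CCGGAAGT was found at 1 start, 47 to 40 bases before Tfam, and in 3.89% of promoters. The MEF2 consensus was found at 1 start, the most upstream Esrrg start, and in 3.19% of promoters. The glucocorticoid receptor consensus ACANNNTGT, which was present in 6.85% of promoters, and the ERR element TCAAGGTCA, present in 0.423%, did not occur in these letters at any of the 17 starts. The NRF1 consensus (1.27% of promoters) and a direct repeat of AGGTCA spaced by 1 base (0.0396%) did not occur either. In base composition the starts fell into unlike kinds. Both Ppargc1a starts (48.7% and 49.0% G and C), Perm1 (52.3%) and the first start of Nrip1 (52.7%) were close to the middle of all promoters or below it. The first start of Ppara (78.3%), Ppargc1b (76.0%), the second start of Nrip1 (73.3%), Tfam (70.3%), Ppard (68.3%) and Esrra (66.0%) were among the richer ones. The Esrrb and Esrrg starts ranged from 44.7% to 61.3%.

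The lists differed in size and depth before any gene was considered. Male lists held 17482 to 87600 peaks, female lists 38861 to 123249, and behind each stood 7.52 to 50.5 M (megatags) of H3K27ac sequence. The male day 4 list had both the fewest tags and the fewest peaks. The labelled tissue was checked with promoter peaks of 12 myofiber genes: Mylpf, Pvalb, Ryr1 and Des had one in all 8 lists and Myh1 in none, and the male lists had 9 (vehicle), 4 (day 4), 9 (day 6) and 9 (day 8) against 10, 10, 11 and 11 in the female lists. Of 21 markers of satellite, endothelial, fibroblast, smooth muscle, immune, fat and Schwann cells, the male lists had 9, 2, 3 and 1 and the female lists 2, 10, 13 and 15. Among the defining ones, Ptprc, Adgre1, Csf1r, Adipoq and Cidec had none in any list. The markers of other cells were more in vehicle-treated males and in treated females than in the other lists, as were the regulator genes with a promoter peak, and the myofiber counts did not follow that order. The part of other cells in the results was not tested. In bulk chromatin, more peaks from other cells and more peaks per myofiber cannot be told apart.

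It was first asked which of the regulator genes carried H3K27ac at a promoter, here a peak overlapping the window from 1 kb before to 100 bp after any start. In males, 8 of the 10 genes had a promoter peak with vehicle, then 5, 5 and 7 of them at days 4, 6 and 8. Across all protein-coding genes these shares were 48.9%, 27%, 28.1% and 31.9%. In females, 4 of the 10 genes had one with vehicle and 10 at each of days 4, 6 and 8, where the shares of all genes were 24.4%, 51.0%, 66.8% and 59.7%. The member counts therefore moved in the direction of the whole list in both sexes, and in the full lists stood above its share in each of the 8. When lists were cut to the length of the shortest, 17482 peaks, by findPeaks score, the counts became 5, 5, 4 and 7 in males and 3, 6, 4 and 4 in females, and the female genes at day 6 were Ppargc1b, Nrip1, Esrrb and Tfam only. The shares of all genes were then 27%, 27%, 24.6% and 29.7% in males and 16.9%, 29.7%, 30.9% and 30.2% in females. This reduction did not keep the peaks with the most tags. The Ppard start peak of female day 6 had 4311 tags and a score of 11, where the lowest score kept was 19. The Ppargc1b start peak of female day 8 had 1468 tags and a score of 17, where the lowest score kept was 21. When fold over input decided which 17482 peaks stayed, the counts were 0, 5, 1 and 6 in males and 1, 5, 8 and 7 in females. Of all genes 13.4%, 27%, 4.73% and 24.6% in males and 4.72%, 24.4%, 43.0% and 22.6% in females then had a promoter peak, so that the regulator genes of vehicle-treated males fell below that share. For promoter peaks, the male order of vehicle above day 4 was thus lost under both reductions, and the female order of vehicle below the treated lists was kept under both.

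**Figure D1:**
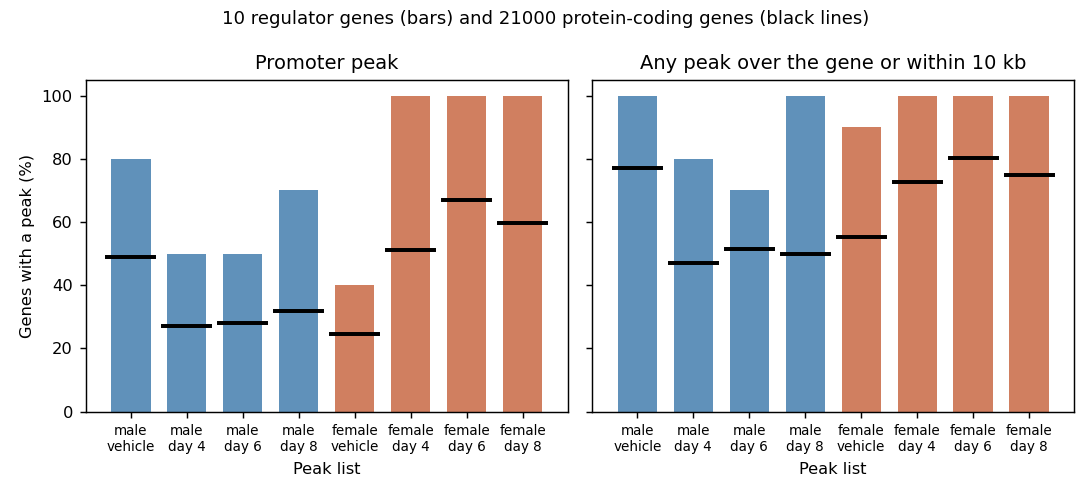
Share of the 10 regulator genes (bars, males blue and females orange) and of all 21000 protein-coding genes (black lines) with a promoter peak (left) or with any peak over the gene or within 10 kb of a start (right), in percent, for each of the 8 lists. The bars stand above the lines in every list, and bars and lines are lowest in males at days 4 and 6 and in vehicle-treated females for promoter peaks.

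Peaks over the gene bodies and within 10 kb of the starts followed a similar course. In males 10 of the 10 genes had at least 1 such peak with vehicle, and 8, 7 and 10 did at days 4, 6 and 8, where 77.0%, 46.9%, 51.6% and 50.0% of all genes did. In females 9 genes had one with vehicle and 10 at each later day, where 55.3%, 72.8%, 80.2% and 75.0% of all genes did. The peaks numbered 108, 29, 27 and 23 in males and 34, 94, 127 and 110 in females, in the order vehicle, day 4, day 6 and day 8. Per 1000 peaks of the list these were 1.23, 1.66, 0.839 and 1.12 in males and 0.875, 1.39, 1.03 and 1.35 in females, so that these rates varied less than the numbers themselves. Most of the genes are also long: Esrrg (606 kb) is longer than 99.4% of protein-coding genes and Esrrb (161 kb) than 94.0%, whereas Perm1 (5.38 kb), Esrra (10.8 kb) and Tfam (12.6 kb) are shorter than the median of 16.7 kb. The peaks closest to the limit lay at gene ends. A female day 8 peak with a fold over input of 31.1 reached 0.0350 kb into the end of Esrra and was counted, and a male vehicle peak with a fold of 3.78 lay 0.0140 kb past the end of Ppara and was not.

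**Figure D2:**
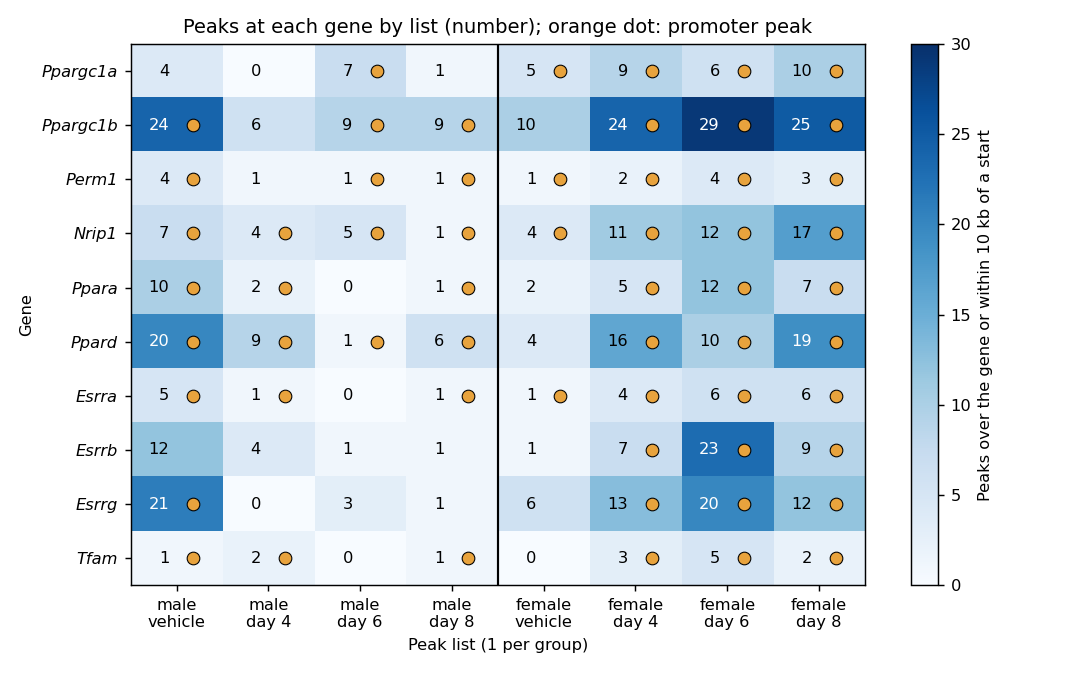
Number of peaks over each gene or within 10 kb of its starts (figures and blue shading) in each of the 8 lists, with an orange dot where a promoter peak was present. Ppargc1b had the most peaks in the female day 6 list (29), and Nrip1 is the only row with a dot in all 8 lists.

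The set of lists in which a gene had its promoter peak differed from gene to gene. Nrip1 had one in all 8 lists, as did 2642 genes (12.6%). Perm1, Ppard and Esrra each lacked it in 1 list, Perm1 at male day 4, Ppard in vehicle-treated females and Esrra at male day 6. Ppargc1b, Ppara and Tfam had it in 6 lists, and all 3 lacked it in vehicle-treated females. Ppargc1a had it in 5 lists, in males at day 6 and in no other male list, and in all 4 female lists, a set that 53 genes (0.252%) had. That set depends on the window. With 500 bp on either side of a start, all 10 genes had a promoter peak in vehicle-treated males. Esrrg had it in 4 lists and Esrrb in the female day 4, 6 and 8 lists only, as did 755 genes (3.60%). In vehicle-treated females the 4 genes with a promoter peak were Ppargc1a, Perm1, Nrip1 and Esrra. Their base composition was given above, and when RefSeq promoters were split into 3 equal groups by G and C, 32.8% of the richest group had a peak in that list and 66.2% in the male vehicle list, while in the poorest group the shares were 6.18% and 10.5%. The part of base composition in these sets was not tested.

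Ppargc1a encodes PGC1α, the coactivator induced by exercise and by cyclic AMP. It lies on the minus strand of chr5:51454249-51567725. In males its 10 kb window and body held 4 peaks with vehicle and 0, 7 and 1 at days 4, 6 and 8, and in females 5, 9, 6 and 10. Male day 4 was thus the 1 list without any peak at the gene. The proximal start (position 51553921), which carries the cyclic AMP response element, lay inside a peak in the male day 6 list and in the female day 4, 6 and 8 lists. At male day 6 this peak (chr5:51552197-51554159) had 26.7 normalized tags, scaled to 10 M in the list, and a fold over input of 13.4. That fold was above those of 97.6% of the promoter peaks in its list, the highest rank of any of the regulator genes in any list. In vehicle-treated males the nearest peak (chr5:51551891-51553500, 63.6 normalized tags, fold 12.8) ended 421 bp inside the gene, so that it did not count as a promoter peak. In vehicle-treated females the corresponding peak (chr5:51551832-51553511, 30.2 normalized tags) also ended short of the start. These peaks shared the bases 51552197 to 51553500, which were covered in 6 lists, all but male days 4 and 8.

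The distal start of Ppargc1a (position 51567725) belongs to an alternative transcript. Its promoter window held a peak at male day 6 and in all 4 female lists. In vehicle-treated females this peak (chr5:51568106-51568606) was short, with 6.90 normalized tags and a fold of 18.5. At female day 4 it had 24.1 normalized tags, at day 6 16.7 and at day 8 23.7, and its width was 1417 bp, 1539 bp and 1501 bp. A further region 18.4 kb from the proximal start (chr5:51533868-51537121) had peaks at male days 6 and 8 and in all 4 female lists, with 1 base in common to at most 4 of them.

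Ppargc1b encodes PGC1β, which shares most receptor partners with PGC1α. Over the 8 lists together it had more peaks than any other of the 10 genes, in vehicle-treated males 24, then 6, 9 and 9 at days 4, 6 and 8, and in females 10, 24, 29 and 25. In females the peaks covered 7.53% of its window with vehicle and 40.6%, 55.6% and 56.4% at days 4, 6 and 8. In males they covered 21.5%, 4.27%, 8.30% and 7.31%. Of 25 regions, made by merging overlapping peaks of all lists, 4 had peaks in all 8 lists, and in 2 of these the same bases were covered in every list. The first lay just inside the start (chr18:61398344-61400131). In the male day 4 and female vehicle lists the peak there ended 160 bp and 281 bp inside the gene and so missed the promoter window, whereas in the other 6 lists it ran over the start. The second lay in an intron 64.4 to 64.5 kb into the gene in the narrowest peaks (chr18:61335793-61336137), where the male day 4 peak had 21.3 normalized tags, the male day 6 peak 9.30, the male day 8 peak 12.5 and the female vehicle peak 7.63. The male day 4 value there rests on 16 tags. The other regions with peaks in all 8 lists, chr18:61344549-61351499 and chr18:61353990-61370749, are intronic, and in each a base was shared by at most 6 lists. The intronic region chr18:61378025-61390550 had peaks in every list but male day 4, with a base shared by at most 6, and chr18:61373603-61377679 in 6 lists, with a base shared by at most 4.

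The start peak of Ppargc1b ranked high in the female treated lists. It had 179 normalized tags and a fold of 11.0 at day 4, 453 and 29.4 at day 6, and 369.7 and 31.5 at day 8. These folds were above those of 89.7%, 89.5% and 85.7% of the promoter peaks in their lists. In males the fold was 5.02 with vehicle (46.5%), 3.42 at day 6 (34.9%) and 5.77 at day 8 (77.4%). The microRNA gene Mir378a, which is transcribed from within Ppargc1b and was looked up after the peaks were seen, lies at chr18:61397835-61397900 and was inside this peak in the same 6 lists. A pair of intronic regions, chr18:61322366-61323486 and chr18:61327314-61328090, had peaks in the female day 4, 6 and 8 lists and in no other list.

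Perm1, a regulator of mitochondrial genes in muscle, is short (chr4:156215927-156221307) and had 1 to 4 peaks per list. Its main region (chr4:156215163-156221110) had peaks in all 8 lists, with the bases 156215985 to 156216495 covered in 7. At male day 4 the only peak (chr4:156217087-156218547, 49.2 normalized tags from 37 tags) began 1160 bp inside the gene. The start peak had 62.0 normalized tags with vehicle in males, 28.3 at day 6 and 27.1 at day 8. In the female vehicle list it had 17.4, then 67.8, 237 and 165 at days 4, 6 and 8, and its width was 1163 bp, 3021 bp, 5560 bp and 5947 bp. At female days 6 and 8 a single peak thus ran over nearly all of the gene.

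Nrip1 encodes RIP140, a corepressor of nuclear receptors that restrains oxidative genes in muscle and fat. Its promoter peak was present in all 8 lists, with the bases chr16:76373219-76373847 covered in every one. In males it had 33.8, 27.9 (from 21 tags), 26.7 and 25.9 normalized tags in the order vehicle, day 4, day 6 and day 8. In females the promoter peak had 17.4, 67.2, 189 and 149, over 628, 2880, 2261 and 2758 bp. Its fold ranked above 37.2% of promoter peaks in vehicle-treated females and above 65.5%, 89.9% and 94.0% at days 4, 6 and 8. In males the rank was 73.1%, 73.1%, 50.3% and 65.9%. The intronic regions chr16:76338848-76339681 and chr16:76356104-76356973 had peaks in the female day 4, 6 and 8 lists only.

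**Figure D3:**
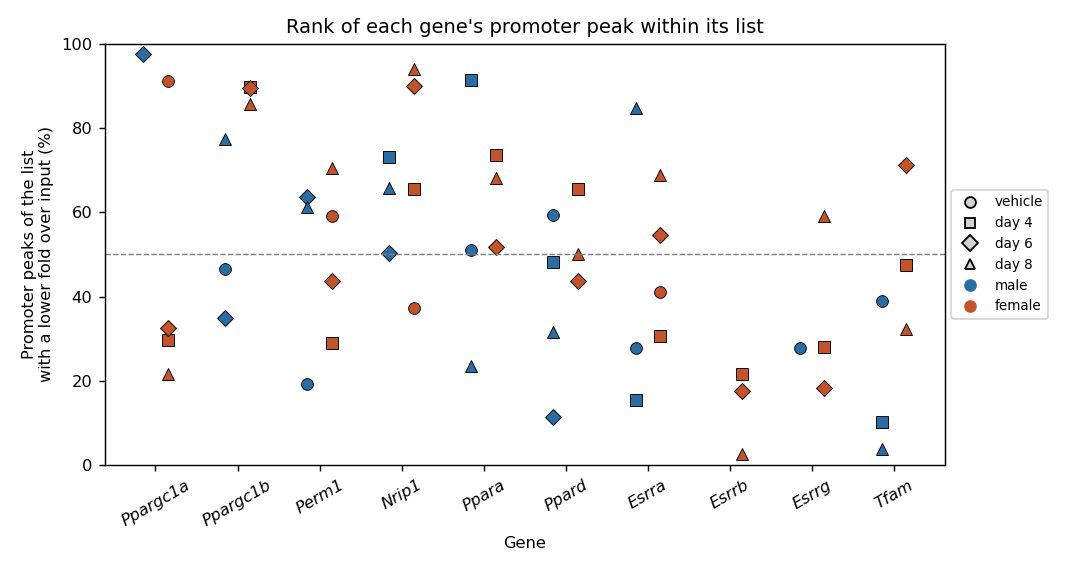
For each gene, the percent of all promoter peaks of the same list with a lower fold over input than the gene's own promoter peak (y axis), in males (blue) and females (orange), with the day given by the shape of the symbol and lists without a promoter peak left out. Ppargc1b and Nrip1 are high at the female treated days, Ppargc1a is at 97.6% at male day 6, and Esrrb stays below 22% in its 3 lists.

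Of the PPARs, Ppard had the widest peak of all the genes and Ppara shorter ones. Ppard (PPARδ, the main PPAR of muscle fibers) lies at chr17:28232754-28301469. Its window held 20 peaks in vehicle-treated males and 9, 1 and 6 at days 4, 6 and 8, which covered 27.9%, 8.21%, 0.850% and 5.15% of it. In females it held 4, 16, 10 and 19 peaks, which covered 2.72%, 32.1%, 82.7% and 55.9%. The female day 6 list thus had fewer peaks than day 4 and more covered bases. A single peak of that list, chr17:28230974-28262305, spanned 31331 bp from before the start into the gene, with 1408 normalized tags and a fold of 11.2. It was the 40th widest of the 123249 peaks in that list. In the female day 4 and 8 lists the peak over the start spanned 1500 bp and 6980 bp. In vehicle-treated females the nearest peak began 607 bp inside the gene, with 6.90 normalized tags, and Ppard had no promoter peak. In males the start peak had 11.1, 31.9, 11.1 and 15.6 normalized tags. The day 4 value rests on 24 tags in a peak of 1273 bp, against 35, 56 and 50 tags in narrower peaks. The intronic regions chr17:28275651-28282334 and chr17:28289811-28296279 each had peaks in 6 lists, vehicle, day 4 and day 8 in males and days 4, 6 and 8 in females, and a shared base in all 6.

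**Figure D4:**
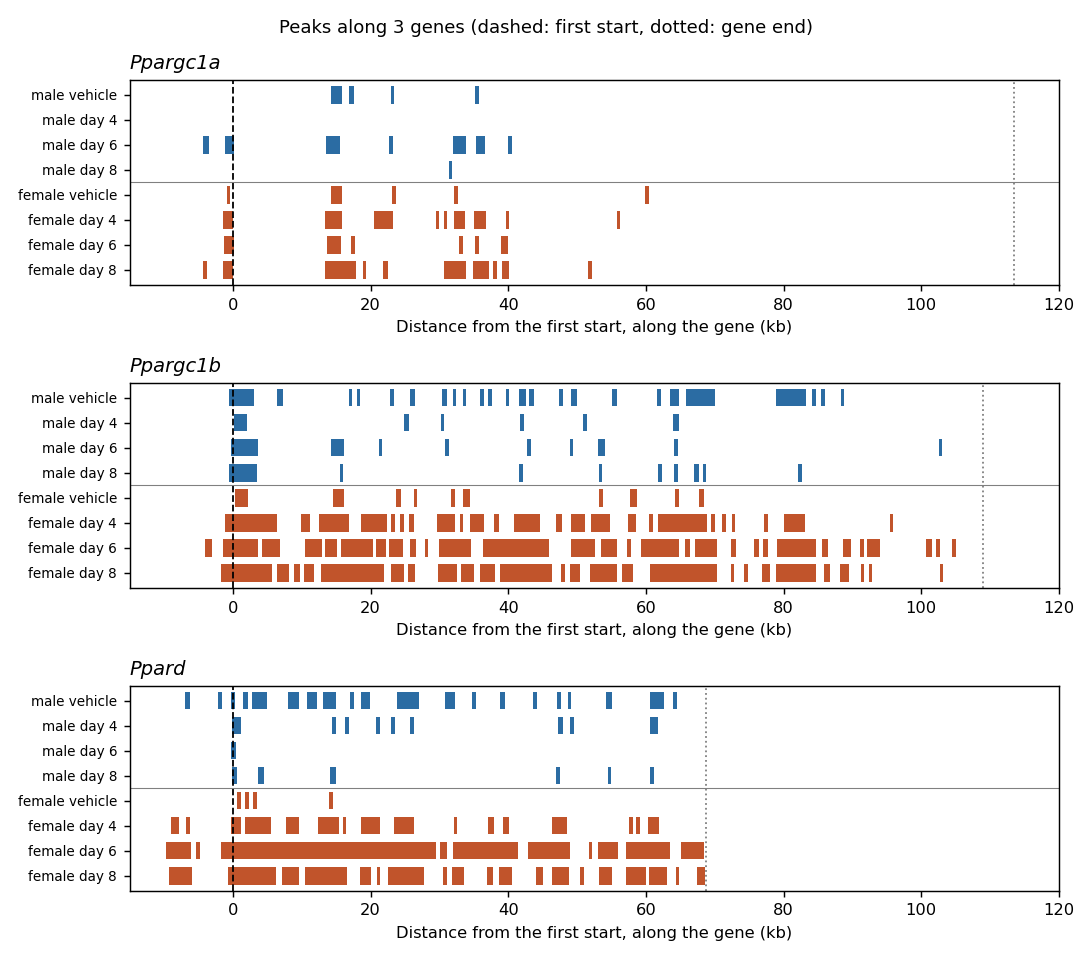
Position of every peak along Ppargc1a, Ppargc1b and Ppard in the 8 lists (rows, males blue and females orange), in kb from the first start (dashed line) toward the gene end (dotted line). The male day 4 row of Ppargc1a is empty, Ppargc1b has peaks near 64 kb in every row, and a single peak of 31331 bp fills the first part of Ppard at female day 6.

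Ppara (PPARα, a receptor for fatty acids that drives their oxidation) had 10 peaks in vehicle-treated males and 2, 0 and 1 at days 4, 6 and 8. In females it had 2, 5, 12 and 7. The start region (chr15:85733794-85737482) had peaks in 7 lists, and the bases 85735527 to 85736200 were covered in the 6 with a promoter peak. At male day 6 no peak lay at the gene. In vehicle-treated females the peak began 801 bp past the second start and had 8.36 normalized tags. The promoter peak had 22.1, 16.0 and 14.7 normalized tags at male vehicle, day 4 and day 8 and 35.5, 126 and 114 at female days 4, 6 and 8. The male day 4 value rests on 12 tags. A region inside the gene, chr15:85756239-85757240, had peaks in the female day 4, 6 and 8 lists only.

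The ERRs differed in kind. Esrra (ERRα, a main partner of PGC1 in muscle) had a promoter peak in 7 lists, while Esrrb and Esrrg (ERRβ and ERRγ) had it in few and mostly in the female treated lists. At Esrra the bases chr19:6922240-6922740 were covered in all 7 lists, and in the male lists and in vehicle-treated females the peak lay upstream of the start and did not include it. The promoter peak had 45.9, 29.3 (from 22 tags) and 16.5 normalized tags at male vehicle, day 4 and day 8. In females it had 9.08 with vehicle and 40.8, 194 and 107 at days 4, 6 and 8. The female peaks at Esrra spanned 500 bp with vehicle and 2748, 4297 and 3354 bp after. A further region at its end, chr19:6906365-6914881, also covers the starts of the neighboring genes Prdx5 and Trmt112, and its peaks cannot be given to Esrra alone.

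Esrrb had 12 peaks in vehicle-treated males, 4 at day 4, 1 at day 6 and 1 at day 8, and in females 1, 7, 23 and 9. None of its 42 regions had peaks in 6 or more lists, and 31 had a peak in 1 list. A peak in vehicle-treated males began 394 bp inside the first start (12.3 normalized tags). At female day 4 the peak in the Esrrb promoter window (chr12:86359710-86360368) lay upstream of the first start and had 7.35 normalized tags. At female days 6 and 8 a different peak, over that start, had 23.8 and 17.9. The folds of these peaks at days 4, 6 and 8 were above those of 21.5%, 17.6% and 2.67% of the promoter peaks in their lists. The second start of Esrrb, at position 86421644, lay in a region with peaks at female days 6 and 8 only (chr12:86421256-86422607), of 17.3 and 16.6 normalized tags. Esrrg, with the longest window of the genes, had 21 peaks in vehicle-treated males and 0, 3 and 1 after, and 6, 13, 20 and 12 in females. Of its 60 regions 51 had a peak in 1 list. The start of the Esrrg transcripts at position 187997827 had a peak at female days 4, 6 and 8 only (chr1:187997531-187998241), with 5.92, 12.4 and 7.55 normalized tags. A region 6.53 kb before another start (chr1:187644823-187645634) had peaks in the same 3 lists. The starts at 187651758 and 187652241 had peaks in vehicle-treated males and at female days 6 and 8.

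Tfam (chr10:71225477-71238044) had 0 to 5 peaks per list. The peak over its start, which carries the ETS site, was present in vehicle-treated males and at male days 4 and 8, and at female days 4, 6 and 8. It had 28.5, 12.0 and 27.4 normalized tags in the male lists and 29.2, 129 and 73.0 in the female lists. The male day 4 peak rests on 9 tags. No peak lay at Tfam at male day 6 or in vehicle-treated females. The bases chr10:71237881-71238289 were covered in all 6 lists.

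Over all 10 genes the merged peaks formed 226 regions, of which 170 had their center in an intron and 7 in a promoter window. Peaks of 1 list only made up 149 of them. Regions with peaks in all 8 lists numbered 7, of which 4 were at Ppargc1b and 1 each at Perm1, Nrip1 and Ppard, and in 3 of these a base was covered in all 8 lists. Female lists alone held 132 regions, male lists alone 43, and both sexes 51. Peaks at these genes numbered 34, 94, 127 and 110 in the female lists and 108, 29, 27 and 23 in the male lists. Regions over the whole series were not counted in this way. The part of list size in the counts by list and by sex was not tested. Regions with peaks in the female day 4, 6 and 8 lists and no other numbered 7.

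The study asked which enhancers appear after treatment and how long they last. It defined prednisone-responsive enhancers (PREs) as peaks present at day 4 and absent with vehicle in the same sex. At the regulator genes 14 of 29 male day 4 peaks (48.3%) and 72 of 94 female day 4 peaks (76.6%) were PREs. Of all day 4 peaks 45.4% were PREs in males and 81.9% in females. At least 1 PRE lay at 6 of the genes in males and at 10 in females, against 21.2% and 65.9% of all protein-coding genes. These shares are not matched for gene length, and most of the regulator genes are long. Counting only within 10 kb of a start left 2 male and 18 female PREs. Of the 14 male PREs, 4 were at Esrrb, 3 each at Nrip1 and Ppard, 2 at Ppargc1b and 1 each at Ppara and Tfam. They rested on 9 to 17 tags each.

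The presence of these PREs in the later lists differed from gene to gene. Of the 14 male PREs, 1 overlapped a day 6 peak, at Nrip1 (chr16:76371873-76372373), and 0 a day 8 peak, which allows a share of up to 21.5% (Wilson 95% confidence interval, counting error only). The shares over all male PREs were 5.84% and 5.01%. Of the 72 female PREs, 42 (58.3%, interval 46.8% to 69.0%) overlapped a day 6 peak and 45 (62.5%, 51.0% to 72.8%) a day 8 peak, and 39 overlapped both. The shares over all female PREs were 50.3% and 43.6%. At Ppard 13 of 13 female PREs were present at both days. At Ppargc1b 12 of 15 were, and at Esrrb 1 of 7 and Esrrg 4 of 13. Ppard and Ppargc1b gave 13 each of the 45 present at day 8. Later peaks covered 82.7% and 55.9% of the Ppard window at days 6 and 8, and 55.6% and 56.4% of the Ppargc1b window. Neighboring PREs could thus lie under the same broad later peak. The intervals treat each PRE as independent and take no account of this. When 50% of a PRE had to be covered the female counts at the 10 genes were 37 at day 6 and 41 at day 8. In lists reduced to 17482 peaks by score the female genes had 20 PREs, of which 4 were present at day 6 and 9 at day 8, and the male genes 22, of which 2 and 5 were. With the reduction by fold over input the female genes had 21 PREs, of which 4 and 5 were present at days 6 and 8, and the male genes 29, of which 0 and 9 were. At day 8 the female share was thus above the male share in the full lists and in those reduced by score, and below it in those reduced by fold.

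**Figure D5:**
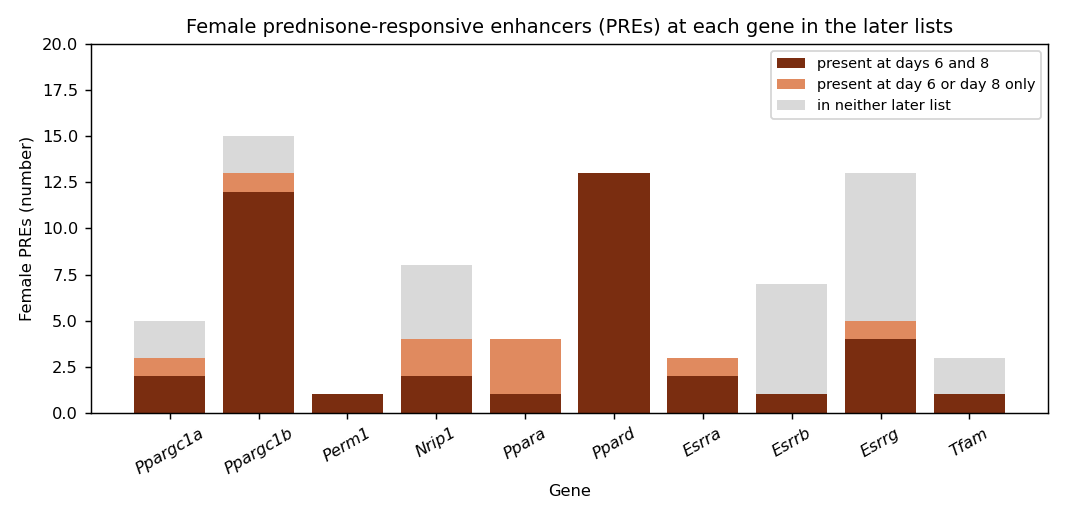
Number of female PREs at each gene (bar height), divided into those present at both days 6 and 8 (dark), at 1 of these days (light orange) and in neither later list (grey). All 13 PREs of Ppard are dark, whereas 6 of the 7 at Esrrb are grey.

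Peaks of the vehicle lists were followed in the same way. Of 108 vehicle peaks at the genes in males, 15 (13.9%) overlapped a day 4 peak, 13 (12.0%) a day 6 peak and 17 (15.7%) a day 8 peak. Of all male vehicle peaks 10.3%, 13.1% and 12.1% did. Of 34 in females, 23 (67.6%), 22 (64.7%) and 22 (64.7%) did, against 36.6%, 39.6% and 41.0% of all female vehicle peaks. In the full lists the few vehicle peaks of females at these genes were thus mostly found again after treatment, and those of males mostly not. Such an overlap depends on the number and width of the later peaks. At the genes these numbered 29, 27 and 23 in males and 94, 127 and 110 in females. The overlap was not counted in lists of equal length. Seen from day 4, 14 of 29 male peaks and 72 of 94 female peaks overlapped no vehicle peak.

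Promoter peaks were also counted at other genes of the pathway. Of 63 upstream, partner and target genes, the male lists had 58, 45, 47 and 48 and the female lists 41, 61, 62 and 62, in the order vehicle, day 4, day 6 and day 8, where 48.9%, 27%, 28.1% and 31.9% of all genes in males and 24.4%, 51.0%, 66.8% and 59.7% in females had one. A promoter peak in all 8 lists was held by 30 of them, against 12.6% of all genes, and in no list by 0. Among 30 upstream and partner genes, 13 had one in all 8 lists: the kinases Prkaa2 and Mapk14, the cyclic AMP factors Creb1 and Crtc2, Mef2d, Nrf1 and Gabpa, which drive nuclear genes of mitochondria, the PPAR partner Rxrb, the coregulators Ncoa2, Ncor1, Ep300 and Pprc1, and the mitochondrial factor Tfb1m. Among 33 target genes, 17 did. They included Cpt1b, Acadm, Acadl, Hadha and Hadhb of fatty acid oxidation, the lipid droplet gene Plin2, Cycs, Cox5a, Atp5b, Sdhb, Ndufs1 and Slc25a4 of the respiratory chain and its nucleotide carrier, Cs and Idh3a of the citric acid cycle, the glucose transporter Slc2a4, the fusion gene Mfn2 and Sod2. Of the 10 regulators, 1 (Nrip1) did.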

How the data were processed

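H3K27ac ChIP-Seq of quadriceps myofibers was deposited as 8 peak lists, 1 per group of 2 H3K27ac libraries and 1 input library. The authors removed adaptors with homerTools, mapped reads to mm10 using Bowtie2 (2.2.6 in the submitters' processing notes) and ran HOMER findPeaks in its histone style against input, keeping peaks with a fold of 2 or more. How the 2 libraries were combined is not given in the sources used here.
The normalized tag count that the authors deposited is a signal scaled to 10 M tags. The score of findPeaks, also deposited, was used to rank peaks within a list. The deposited ratio of H3K27ac to input tags is called the fold over input. Folds are unstable where input tags are few. The deposited p-values and clonal folds were not used.

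Depth was recovered from the step between normalized tag counts, of which those below 10 were whole multiples (within 0.0051) in 100.0% of cases in each list. Starts were those of 45302 curated RefSeq transcripts of GRCm38.p6, the mm10 assembly, with 21000 protein-coding genes. An overlap was at least 1 bp. PREs were day 4 peaks that no vehicle peak of that sex overlapped, as in the authors' use of mergePeaks. Intervals of percentages are 95% Wilson intervals, which cover counting error and treat neighboring peaks as independent. With 1 list per group no test was possible and no p-value was computed.

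All 10 genes are described, with their regions over a start, in 6 or more lists, or in the female day 4, 6 and 8 lists only, and of the pathway genes those with a promoter peak in all 8 lists or in none. The genes, gene lists, motifs and alternatives were chosen with earlier results of these data known, and 1 alternative (equal lists by fold) and the microRNA lookup were added after seeing the data. Of the cell type markers listed, 1 is not reported here. Of 17 member starts, 14 are in the RefSeq promoter table, all identical to the genome. The overlap, depth and motif steps recovered every planted value in 8 of 8 tests on simulated data, with bedtools 2.31.1 as reference. Python 3.11.15, numpy 2.4.6, pandas 2.3.3 and matplotlib 3.10.9 were used.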

Additional observations from a re-analysis of the deposited data

Results flagged for a closer look

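In the full lists, counts at the regulator genes moved in opposite directions from vehicle to treatment in the sexes. The difference was not tested, since each group has 1 list. Genes with a promoter peak went from 8 in vehicle-treated males to 5, 5 and 7 at days 4, 6 and 8, and from 4 in vehicle-treated females to 10, 10 and 10. Peaks at the genes went from 108 to 29, 27 and 23 in males and from 34 to 94, 127 and 110 in females. The share of all protein-coding genes with a promoter peak moved in the same opposite directions, from 48.9% to 27%, 28.1% and 31.9% in males and from 24.4% to 51.0%, 66.8% and 59.7% in females. Depth in males was 31.6 M tags with vehicle and 7.52, 50.5 and 32.1 M tags at days 4, 6 and 8. In females it was 27.5 M tags with vehicle and 49.0, 30.6 and 39.7 M tags after. The part of depth, list length and cell type markers in this difference was not tested.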

How the results depend on the processing

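No paired analysis was possible because each group has 1 list and no test was made, and for the same reason leaving out a replicate was not run. Of 98 values under an alternative, 46 lay within 1.5 times the reported count and 52 did not. Vehicle, day 4, day 6 and day 8 are given in that order, and values within 1.5 times are included where a set is complete. With every list reduced to 17482 peaks by findPeaks score, genes with a promoter peak numbered 5, 5, 4 and 7 in males and 3, 6, 4 and 4 in females, and peaks at the genes 22, 29, 17 and 23 and 15, 28, 19 and 28. PREs were then 22 in males (2 present at day 6 and 5 at day 8) and 20 in females (4 and 9). With the lists reduced by fold over input instead, an alternative added after seeing the data, promoter counts were 0, 5, 1 and 6 in males and 1, 5, 8 and 7 in females, peaks 21, 29, 13 and 19 and 14, 22, 17 and 27, and PREs 29 in males (0 and 9) and 21 in females (4 and 5). With a fold of at least 4, promoter counts were 7, 5, 2 and 4 in males and 4, 10, 10 and 10 in females, peaks 60, 29, 22 and 16 and 33, 61, 95 and 109, and PREs 23 in males (2 and 3) and 48 in females (23 and 27). Counting only peaks within 10 kb of a start gave 30, 9, 10 and 9 peaks in males and 11, 28, 38 and 32 in females, and 2 male and 18 female PREs. With the start base itself in a peak, 2 genes remained counted in vehicle-treated females. The male fall in peaks from vehicle to day 4 turned into a higher number under both reductions to equal length, and the female order of vehicle below every treated list held under every alternative. Windows of 500 bp and 50% coverage moved no count by over 1.5 times. The male day 4 list had the fewest tags, 7.52 M, and the part of depth in its missing peaks was not tested.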
